A study of Mus musculus with 2 samples.

Results

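The genes described here are the RFX transcription factor genes Rfx1 to Rfx7 and the multiciliation regulators Foxj1, Ccno and Mcidas, 10 of 21938 protein-coding genes. They were taken by name, and all 10 were found in the mouse annotation (GENCODE M21, mm10). Open chromatin was mapped by DNase-seq, in which the enzyme DNase I cuts DNA that is not shielded by nucleosomes, in the hindbrain of newborn mice (postnatal day 0) of the strain B6NCrl, with tissue of both sexes combined. There was 1 group of 2 biological replicates, which the labels give as separate tissue samples sharing a donor entry, with the number of animals not given in the sources used here. There is no second condition, so no test between groups was possible, and the spread between the 2 replicates is the only error available.

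RFX proteins bind the X-box, a pair of inverted arms with a short spacer, through a winged-helix domain, and many genes for cilia carry such a site. Mcidas protein, together with E2F and DP proteins, starts the programme by which a precursor makes many motile cilia; Ccno protein acts in the amplification of centrioles, and Foxj1 protein turns on genes for motile cilia, partly together with RFX factors. In brain, multiciliated ependymal cells line the ventricles and the choroid plexus carries ciliated cells too.

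The sequences below carry the sites and starts on which the results turn. The first pair are the promoters of Ccno (chr13:112987552-112987801) and Mcidas (chr13:112993618-112993844), upstream bases only, on the plus strand of mm10 and taken from RefSeq (GRCm38.p6); capitals mark the RFX site GTTGCCA, the more conserved arm of an X-box.
Ccno promoter: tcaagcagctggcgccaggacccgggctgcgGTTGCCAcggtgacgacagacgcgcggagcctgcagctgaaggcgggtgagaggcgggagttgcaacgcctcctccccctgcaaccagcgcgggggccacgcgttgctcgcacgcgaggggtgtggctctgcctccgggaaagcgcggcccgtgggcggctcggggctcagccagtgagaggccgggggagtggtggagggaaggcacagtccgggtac
Mcidas promoter: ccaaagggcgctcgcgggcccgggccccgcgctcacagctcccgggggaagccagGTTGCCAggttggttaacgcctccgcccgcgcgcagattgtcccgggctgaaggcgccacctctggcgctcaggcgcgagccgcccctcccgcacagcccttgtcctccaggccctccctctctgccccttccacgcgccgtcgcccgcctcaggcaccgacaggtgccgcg

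The RefSeq promoters searched numbered 10 and matched 9 of the members, all but Foxj1, which had no entry. Of these 10, 3 held GTTGCCA on either strand between 250 bases before and 50 after the start. Among 20150 promoters of protein-coding genes the share was 4.21%. With 500 bp on each side of the same 10 RefSeq starts the members' count was again 3. Over all genes, with 1 window at the annotated 5′ end of each, the share was 10.8%. The kind of start thus differs between the count and the share, and the matching Rfx6 start is not a 5′ end. The Ccno site begins 219 bp and the Mcidas site 195 bp before the RefSeq start. The remaining match was at a downstream start of Rfx6, where no peak was called. The Mcidas site lay inside a peak of each replicate, with scores of 60 and 35. At Ccno it lay 47 bp and 67 bp from the nearest peak in replicates 1 and 2, but inside the broader hotspot of each. None of the 10 RefSeq promoters held a full X-box (GTTNCC, 1 to 3 bases, GGNAAC), the forkhead core GTAAACA or an E2F site (TTTCCCGC or TTTGGCGC). These were found in 0.730%, 2.96% and 2.08% of all promoters. At Mcidas an E2F site straddled the upstream edge of that window and so was not counted. It begins 253 bp before the RefSeq start, in the peak of replicate 1 and not in that of replicate 2. In 200 bp around the centre of shared promoter regions, 1 of the members' 20 held an E2F site (5%), against 1.77% of all such regions. GTTGCCA was also found in 1 of the 20 (5%), against 3.44%. The forkhead core and the full X-box were found in 0 of the 20, against 1.66% and 0.748%. A match is a description of letters and not evidence of binding.

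The deposited tables list, for each library, peaks of 150 bp with a score between 1 and 150 and broader hotspots with a −log10 q-value capped at 100. Replicate 1 had 271150 peaks and replicate 2 had 172002. Read counts were not in the tables used here, so depth is unknown, and a gene without a peak was below the calling threshold, not shown to be closed. The meaning of the score is not stated, so it ranks peaks within a list: a percentile below is the place of a peak among all peaks of its own replicate. Over all regions found in both replicates the percentile of a region differed between replicates by a median of 10.2 points and by 29.8 points at the 90th percentile. Promoter peaks in both replicates were found for 13 of 14 genes of hindbrain position and 3 of 10 of forebrain position. They were found for 7 of 7 radial glia, 6 of 6 neuron, 1 of 5 microglia and 2 of 5 endothelial markers. Over all protein-coding genes the share was 66.3%. The microglia markers held 9 to 15 CpG within 500 bp of their 5′ ends. Of all genes in the decile spanning 9 to 15 CpG, 31.9% had such peaks. CpG content was not matched between these lists. In bulk tissue, fewer nuclei of a type and less open chromatin per nucleus cannot be told apart.

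All 10 members had a promoter peak, within 500 bp of an annotated start, in both replicates, and all 10 had a promoter hotspot in both. Over all protein-coding genes 66.3% had such a peak and 66.7% such a hotspot. The members are CpG-rich at their 5′ ends: they held a median of 86.5 CpG within 500 bp, from 42 at Rfx6 to 122 at Rfx7, against a median of 41 over all genes. All 10 fell in deciles 6 to 10 of genes by CpG number, in which the share of genes with peaks of both replicates at the promoter was between 93.2% and 97.6%. The members' count was close to what genes of like CpG content showed. At 7 of the 10, the strongest promoter peak ranked, in each replicate, above the median of all genes with a promoter peak. The share of all genes above both medians was not computed, nor was that of genes of like CpG content.

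**Figure D1:**
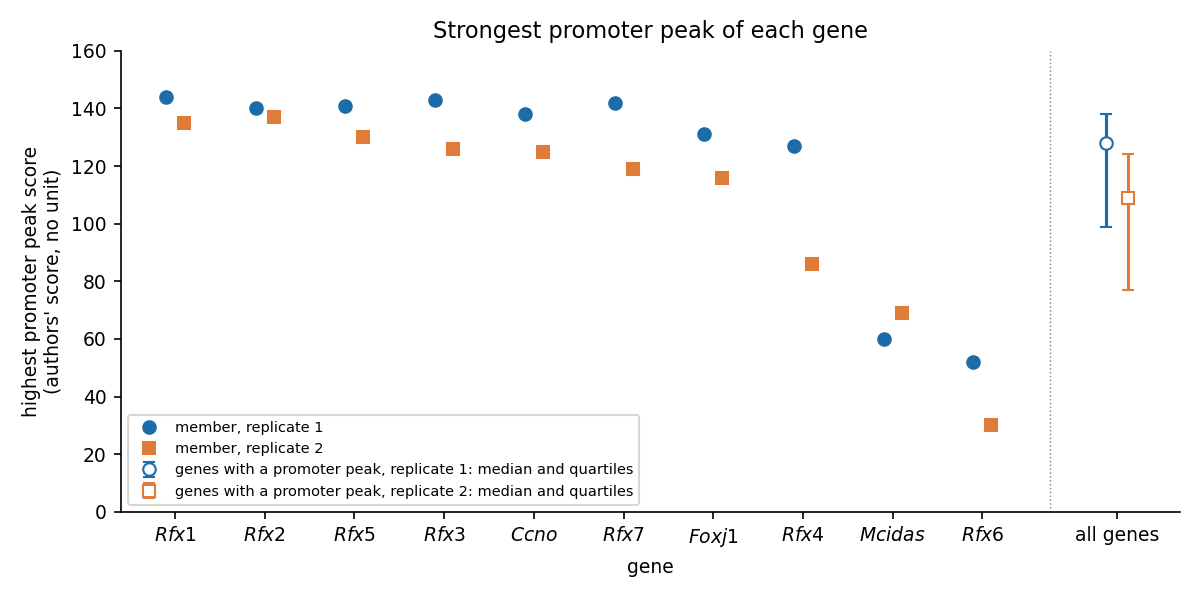
The highest peak score within 500 bp of a start (vertical axis, the authors' score) is plotted for each of the 10 genes in each replicate, beside the median and quartiles of all genes with a promoter peak. Rfx1, Rfx2, Rfx3, Rfx5, Rfx7, Ccno and Foxj1 lie above the all-gene medians of 128 and 109 in replicates 1 and 2, Rfx4 lies at 127 and 86, below both medians, and Mcidas and Rfx6 lie below the lower quartiles of all genes.

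Rfx1, the founding factor of the family and active in many tissues, had the highest mean rank. Its strongest promoter peak scored 144 in replicate 1 and 135 in replicate 2 (percentiles 99.7 and 99.6), and the peak falls in an exon of the antisense transcript C330011M18Rik, whose start lies within 500 bp of it. Rfx5, the subunit of the RFX complex that binds MHC class II promoters, scored 141 and 130, and all 5 of its separate starts, whose windows overlap, had a peak in both replicates. Its downstream-most start had only weak ones, with scores of 25 and 31. Rfx7, a broadly expressed factor studied in neural tube and lymphocytes, scored 142 and 119, and a start of the lincRNA 4930509E16Rik also lies within 500 bp of its promoter peaks.

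Rfx2 and Rfx3, the RFX factors most tied to ciliogenesis, also stood near the top. Rfx2 scored 140 and 137, and Rfx3 scored 143 and 126. Rfx1, Rfx2, Rfx5 and Rfx3 followed each other in the order of mean percentile, and each neighbouring pair among them changed places between the replicates, as did Ccno and Rfx7. These members cannot be ordered beyond the replicate spread. Foxj1, Rfx4, Mcidas and Rfx6 followed in that order in both replicates, but not every gap exceeds 10.2 points, the median difference of a region between replicates. The gap between Foxj1 and Rfx4 was 0.61 and 6.37 points in replicates 1 and 2, that between Rfx4 and Mcidas 28.2 and 8.10, and that between Mcidas and Rfx6 8.21 and 50.6.

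The regulators of multiciliation differed. Ccno, the atypical cyclin, scored 138 and 125 (percentiles 98.6 and 98.1), and Foxj1, the forkhead factor, scored 131 and 116 (97.4 and 96.5). Mcidas, the coregulator that acts before both, scored 60 and 69 (68.6 and 82.0). Mcidas thus ranked below Ccno and Foxj1 in both replicates.

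The Mcidas values depend on the edge of the window. In replicate 2 the score of 69 belongs to a peak at chr13:112994316-112994465, whose near edge is 471 bp downstream of the start. The overlapping peak of replicate 1, at chr13:112994356-112994505 with a score of 104, begins 511 bp downstream and so fell outside. With windows of 1000 bp the mean percentile of Mcidas was 87.2, against 75.3 with windows of 500 bp. The hotspot over the Mcidas start itself reached a −log10 q of 5.52 and 3.70 in replicates 1 and 2, while the hotspot downstream of it was at the cap of 100 in both. The strongest open stretch near Mcidas was thus inside the gene and not over its start.

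Rfx4, a brain-enriched factor needed for the dorsal midline, scored 127 and 86 (96.8 and 90.2). Rfx6, a factor of pancreatic islet development, had the lowest values, 52 and 30 (60.4 and 31.4), and its best hotspot had a −log10 q of 100 in replicate 1 and 2.00 in replicate 2. The difference of 29.0 percentile points between its replicates is near the 90th percentile over all shared regions. Rfx6 was the member lost when peaks under the median score of each list were left out, which left 9 of 10 members and 62.2% of all genes. Among pancreatic endocrine markers, 2 of 6 had a promoter peak in both replicates, against 66.3% of all genes. They were Ins2, with scores of 36 and 18, and Chga, which neurons express too, with 120 and 90. Within 500 bp of their 5′ ends Ins1 and Ins2 held 5 CpG each, Gcg 18, Sst 37, Pdx1 39 and Chga 55. In the deciles with 0 to 5 and 5 to 9 CpG, 5.24% and 17.7% of genes had peaks in both. With 15 to 26 and 26 to 41 CpG the shares were 49.4% and 79.1%. CpG content was not matched.

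Several members have more than 1 annotated start. Joining starts within 100 bp gave 29 starts, of which 18 had peaks in both replicates, 10 had none in either and 1, in Rfx7, had a peak of score 19 in replicate 2 alone. At Rfx4, the first start, at the 5′ end of the gene, had the peak described above and 49 CpG within 500 bp, while the 3 downstream starts had no peak in either replicate and 7, 12 and 17 CpG. At Rfx3 both starts at the 5′ end had peaks and the 3 downstream starts had none, and at Rfx6 only the first of 3 starts had one.

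The upstream bases of the first Rfx4 start (chr10:84755798-84756047) and of its last annotated start (chr10:84837898-84838147), on the plus strand of mm10 from RefSeq, are shown to set an open start beside one with no peak; capitals mark CpG, of which they hold 15 and 2 in 250 bases.
Rfx4 first start: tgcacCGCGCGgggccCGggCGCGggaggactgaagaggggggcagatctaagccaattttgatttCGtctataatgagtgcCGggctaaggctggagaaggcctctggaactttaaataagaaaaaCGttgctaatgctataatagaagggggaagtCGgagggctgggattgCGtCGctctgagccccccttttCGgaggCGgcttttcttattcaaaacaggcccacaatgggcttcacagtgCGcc
Rfx4 last start: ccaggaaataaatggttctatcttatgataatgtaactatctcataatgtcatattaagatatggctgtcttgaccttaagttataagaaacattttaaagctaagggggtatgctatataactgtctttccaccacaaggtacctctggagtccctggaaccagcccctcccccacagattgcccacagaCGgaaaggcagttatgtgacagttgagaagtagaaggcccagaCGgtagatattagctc

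Away from promoters, 67 regions with a peak of each replicate had a member as their nearest protein-coding gene. They lay over 500 bp from every annotated start. The members had between 1 such region (Rfx5 and Ccno) and 19 (Rfx4), with a median of 4, against a median of 2 over all genes. Because genes with more surrounding sequence collect more regions, each member was also ranked among the genes of its own decile by territory, the length of genome for which a gene's starts are the nearest. On that scale 6 of 10 members had more distal regions than the median gene of their decile and 2, Rfx5 and Ccno, had as many, while 41.6% of all genes had more. Rfx1 and Foxj1, with 4 regions each, stood at percentile 95.3, Rfx2 with 10 regions at 94.0 and Rfx4 with 19 at 88.5. Rfx3, with 15 regions in a territory of 514 kb, stood at 41.9, and Rfx6, with 4, at 23.6.

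**Figure D2:**
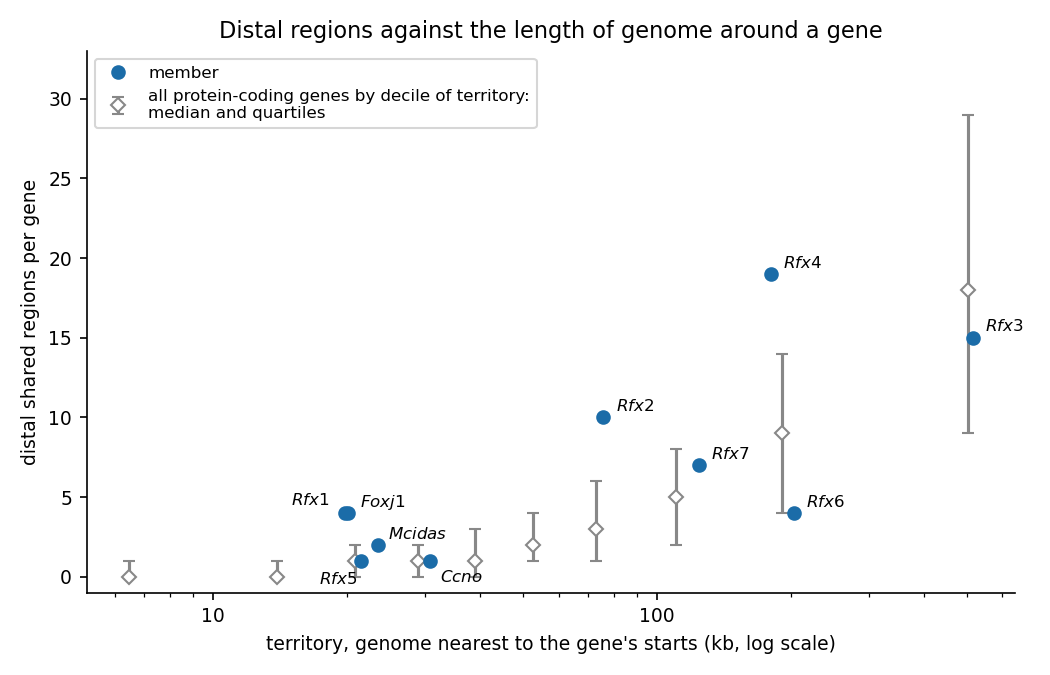
Each point is a member, placed by the length of genome nearest to its starts (horizontal, kb, log scale) and its number of distal regions found in both replicates (vertical), with the median and quartiles of all protein-coding genes in 10 groups by territory length. Rfx4 (19 regions), Rfx2 (10), Rfx1 and Foxj1 (4 each) lie above the upper quartile of their group, and Rfx6 (4) lies at the lower quartile.

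The members' distal regions were mostly inside the genes themselves. Of the 67, 48 (71.6%) lay in the member's own gene body, against 44.2% of all distal regions in that of their nearest gene, and 6 (8.96%) lay over 50000 bp from the nearest start of the member, against 35.9% of all 107430 distal regions. Introns of any gene held 44 (65.7%), exons 9 (13.4%) and intergenic DNA 14 (20.9%), against 48.9%, 7.70% and 43.4% of all distal regions. Regions share genes and libraries, and these shares were not tested or matched for territory. Rfx1, Rfx5, Foxj1, Ccno and Mcidas had territories of 19.8 to 30.8 kb, so no region of theirs could lie over 50000 bp away. The scores of the members' regions were close to those of all distal regions. Their medians were 65 and 42 in replicates 1 and 2, against 60 and 40 for all. The nearest gene need not be the gene a region acts on, and with non-coding genes counted as neighbours 41 of the 67 remained with a member, none of them at Rfx1, Rfx6 or Rfx7.

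Rfx2 held 3 of the 6 highest-ranked distal regions, all close together in its introns. They lie 16492, 20602 and 22282 bp downstream of the 5′ end. The nearest scored 125 and 105 in replicates 1 and 2, the next 117 and 83 and the farthest 118 and 101. The other 7 Rfx2 regions scored between 30 and 61 in replicate 1 and between 25 and 36 in replicate 2, so the 3 stood apart in both replicates. Downstream of 25852 bp, and so around the last annotated start of Rfx2, no region was found in both replicates.

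Both RFX-type letters and a forkhead core were found in these Rfx2 introns. The sequences are shown on the plus strand of mm10, read from the RefSeq genome; Rfx2 is transcribed from the minus strand. Capitals mark GTTGCCA and a relaxed X-box in the region at 16492 bp (chr17:56814436-56814605), and the forkhead core (as TGTTTAC, its reverse complement) and a relaxed X-box in the region at 20602 bp (chr17:56810336-56810485); the region at 22282 bp (chr17:56808656-56808805) held none of the motifs searched.
Rfx2 at 16492 bp: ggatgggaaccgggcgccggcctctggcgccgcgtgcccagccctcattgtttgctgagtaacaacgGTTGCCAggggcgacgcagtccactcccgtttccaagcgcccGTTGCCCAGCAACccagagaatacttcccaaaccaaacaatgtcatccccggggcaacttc
Rfx2 at 20602 bp: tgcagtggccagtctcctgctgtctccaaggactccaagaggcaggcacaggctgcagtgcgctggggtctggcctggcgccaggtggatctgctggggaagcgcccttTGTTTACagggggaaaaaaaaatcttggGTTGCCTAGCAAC
Rfx2 at 22282 bp: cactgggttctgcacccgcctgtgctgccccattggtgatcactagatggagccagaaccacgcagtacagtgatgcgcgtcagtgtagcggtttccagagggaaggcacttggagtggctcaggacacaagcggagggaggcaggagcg

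The relaxed X-box allows A as well as G as the first base of the second arm and was chosen after these sequences had been seen. It matched 2 of the members' 67 distal regions (2.99%), both of them in Rfx2, against 2.64% of all distal regions, in 200 bp around the centre. The full X-box matched none of the 67, against 1.41% of all. Full and relaxed name the letters searched here and not how typical a site is of RFX binding. GTTGCCA matched 4 (5.97%), against 6.26%, namely 2 in Rfx1 and 1 each in Rfx2 and Rfx7. The forkhead core matched 2 (2.99%), against 2.66%, in Rfx2 and upstream of Rfx7, and the E2F site none, against 0.520%. The shares for the members were thus close to those of all distal regions for GTTGCCA and the forkhead core.

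Rfx4 had the most distal regions, 19, and 15 of them lay in its own introns. The strongest, 96689 bp downstream of the 5′ end and past all 4 annotated starts, scored 110 and 97. One 971 bp upstream of the 5′ end, scored 110 and 74, and another, in an intron 4259 bp downstream, scored 92 and 68. A group of 3 regions between 43911 and 45711 bp upstream lay in introns of Polr3b, a subunit gene of RNA polymerase III, with scores from 59 to 83 in replicate 1 and from 47 to 64 in replicate 2. The median Rfx4 region scored 68 and 48, against 60 and 40 for all distal regions.

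By mean percentile, the highest-ranked distal region of any member lay 1829 bp upstream of Rfx7, in an intron of 4930509E16Rik. It scored 119 in replicate 1 and 117 in replicate 2, percentiles 95.6 and 96.7. In replicate 1 the Rfx2 region at 16492 bp stood above it, at 96.5, and in replicate 2 below it, at 94.7. Past the 3′ end of Rfx7, regions 96551 and 103151 bp from the 5′ end scored 73 and 52, and 87 and 65. The Rfx7 upstream region and the strongest intronic region of Rfx4 are shown as the top elements of genes other than Rfx2, on the plus strand of mm10 from the RefSeq genome; neither holds a motif searched here, so no base is in capitals.
Rfx7 upstream, chr9:72530336-72530485: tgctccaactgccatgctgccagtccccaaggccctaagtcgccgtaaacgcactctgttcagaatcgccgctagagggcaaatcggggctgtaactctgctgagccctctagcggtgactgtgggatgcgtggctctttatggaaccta
Rfx4 intron, chr10:84852676-84852825: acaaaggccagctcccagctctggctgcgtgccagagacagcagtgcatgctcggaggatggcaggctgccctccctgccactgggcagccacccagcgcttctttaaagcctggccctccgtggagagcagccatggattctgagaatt

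**Figure D3:**
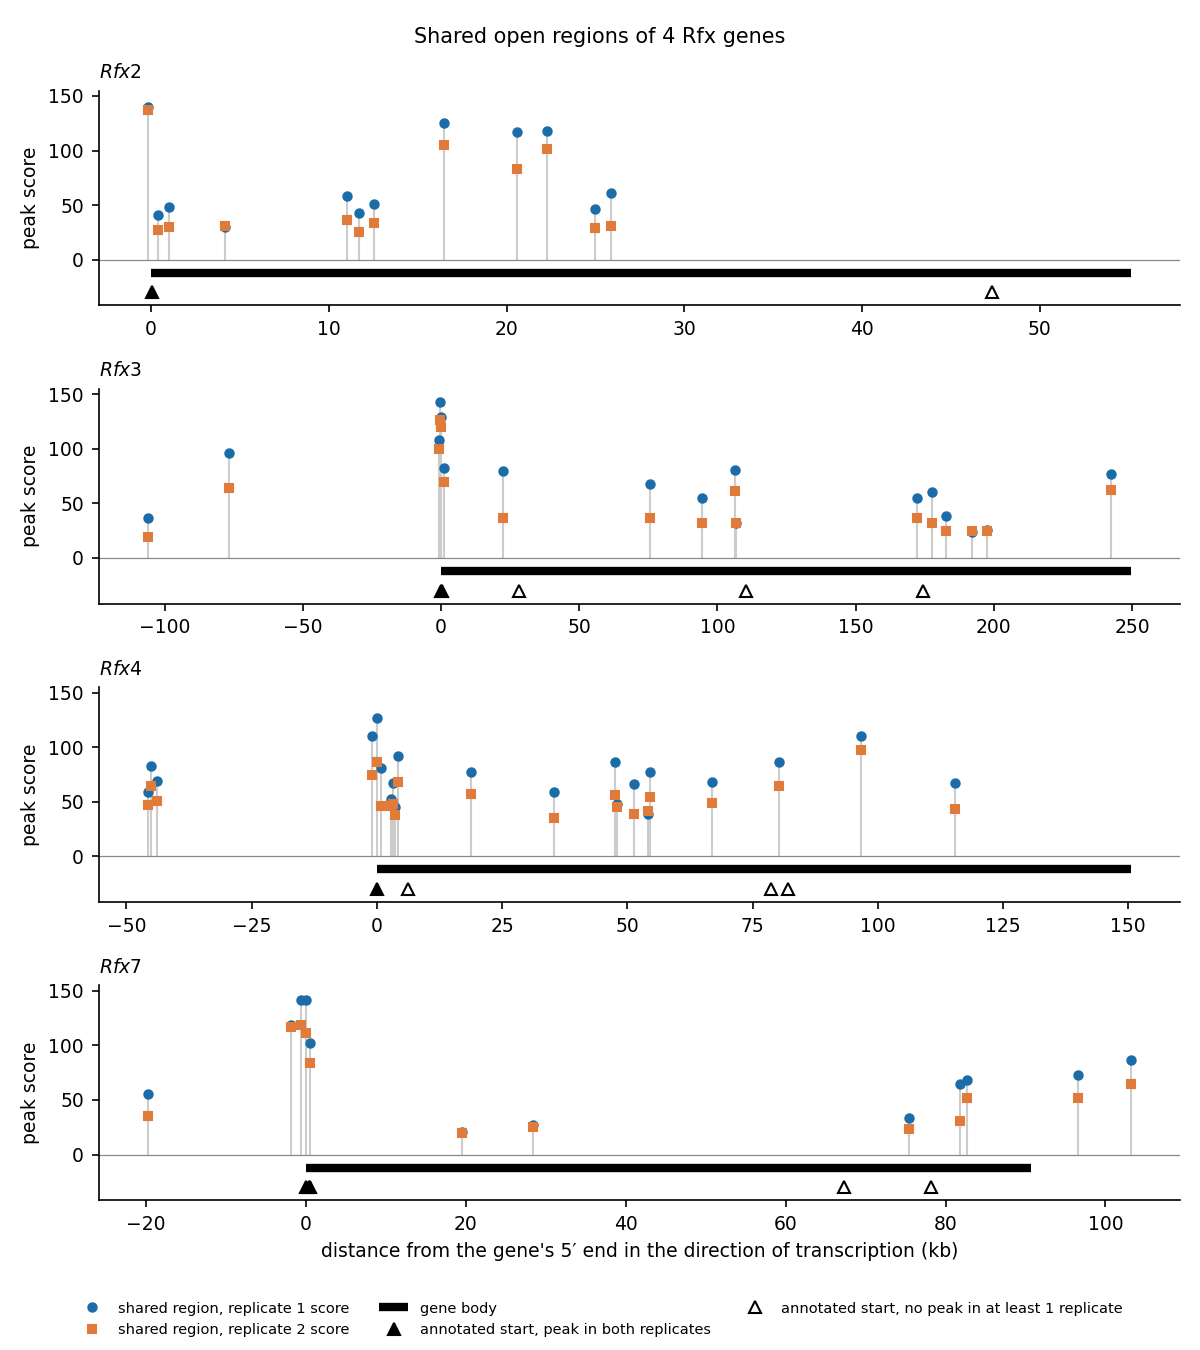
Regions found in both replicates are drawn by distance from the 5′ end of Rfx2, Rfx3, Rfx4 and Rfx7 (horizontal, kb) and by peak score (vertical), with the gene body as a bar and annotated starts as triangles, filled where both replicates have a peak. Filled starts sit at the 5′ ends, the 3 high intronic regions of Rfx2 lie between 16492 and 22282 bp, and the downstream starts of Rfx3 and Rfx4 are open triangles.

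At Rfx3, the strongest distal region lay 775 bp upstream and scored 108 and 100, next to the promoter peaks. One at 76625 bp upstream scored 96 and 64, and one at 1115 bp inside the gene scored 82 and 70. The remaining regions inside its gene body, which spans 249446 bp, scored at most 81 and 62. Rfx3 also had the most peaks found in replicate 1 alone: 16 of its 48 distal peaks of replicate 1 recurred in replicate 2, while 16 of its 19 of replicate 2 recurred in replicate 1.

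Foxj1, 4696 bp long, had 4 distal regions within 5588 bp of its start. The strongest, past the 3′ end, scored 96 and 56, and the one in its intron scored 82 and 53. A region 1192 bp upstream scored 69 and 39 and lay in an exon of the neighbouring gene Rnf157. Rfx1 had 1 stronger intronic region, 17127 bp downstream of the 5′ end, with scores of 86 and 56 and a GTTGCCA match; those at 3117 and 6907 bp scored 50 and 38, and 45 and 32. Rfx5 had a single distal region, 1064 bp upstream, with scores of 65 and 50. The 4 distal regions of Rfx6 were all intergenic, none lay in its gene body, and they scored at most 59 and 42. The highest by mean percentile lay 102095 bp downstream of the 5′ end (56 and 42), then 114505 bp downstream (48 and 36) and 20265 bp upstream (35 and 35).

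The distal peaks of the members recurred between replicates about as often as others. Of 138 in replicate 1, 69 overlapped a peak of replicate 2 (50%, exact binomial 95% interval 41.4 to 58.6), against 48.4% of all distal peaks. Of 86 in replicate 2, 69 overlapped a peak of replicate 1 (80.2%, 70.2 to 88.0), against 81.7%. Such intervals cover counting error only. Spearman's rho of the score between the replicates was 0.866 over the members' 67 regions and 0.885 over all distal regions; regions share their libraries, so no p is given.

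Ccno and Mcidas are neighbours on chromosome 13, transcribed in the same direction with 3067 bp between them. Cdc20b, the host gene of the Mir449 microRNAs that act in multiciliated cells, starts 34716 bp past the end of Mcidas. The Ccno promoter, with scores of 138 and 125, was the highest of the interval. The promoter of Cdc20b was weak, at 54 and 25. A stronger region lay inside Cdc20b over Mir449c, at chr13:113036016-113036165, and scored 113 and 96 (percentiles 94.5 and 92.9). It begins outside the 500 bp window of the Cdc20b start (chr13:113035111) but within 1000 bp of it, so the Cdc20b value depends on the window. Between Mcidas and Cdc20b, the strongest region scored 85 and 67. Among regions over 500 bp from every start, 2 in exons of Mcidas scored 68 and 43, and 60 and 57, and 1 in an exon of Ccno scored 52 and 27.

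**Figure D4:**
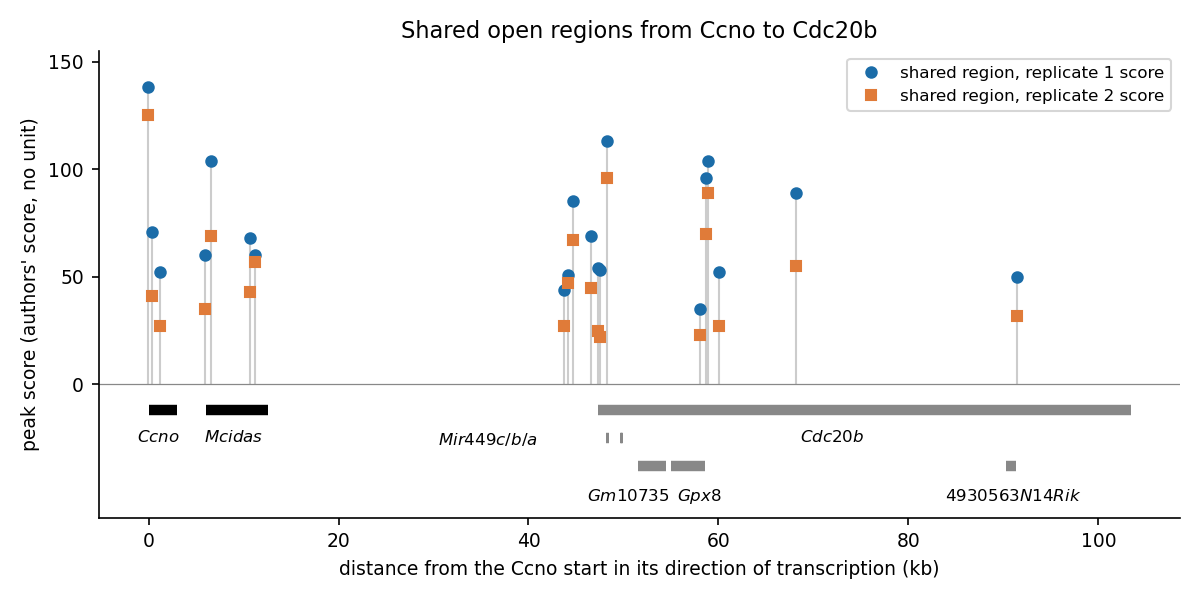
Regions found in both replicates are drawn by distance from the Ccno start (horizontal, kb) and by peak score in each replicate (vertical), with genes as bars below, plus-strand genes in the upper row. The Ccno promoter (138 and 125) and the region over Mir449c (113 and 96) are the highest in both replicates, above the Mcidas start (60 and 35) and the Cdc20b start (54 and 25).

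Of 18 other genes of the multiciliation programme, 17 had a promoter peak in both replicates, against 66.3% of all genes; the exception was Ccdc78, a gene for a deuterosome component, with none in either. The highest were the centriole genes Cep152, with 145 and 131, and Cep63, with 142 and 131 in a window shared with Anapc13, followed by E2f5, a partner of the Mcidas protein, with 139 and 119. Low scores were found at Gmnc, a relative of Mcidas that acts earlier (66 and 47), at Trp73, a p53-family factor of ciliated cells (59 and 31), and at the deuterosome gene Deup1 (69 and 49). Within 500 bp of its 5′ end Ccdc78 held 8 CpG, and 17.7% of genes in the decile with 5 to 9 CpG had peaks in both. Apart from Gmnc, Deup1 and Cdkn1a, with 10, 35 and 7, the programme genes with peaks held 60 to 131 CpG. In their deciles 95.3% to 97.6% of genes had peaks in both. Of 15 markers of multiciliated and ependymal cells, 13 had a promoter peak in both replicates, without Ccdc153 and Tmem212. Of 7 choroid plexus markers 5 did, without Ttr and Kcne2. Ccdc153, Tmem212, Ttr and Kcne2 held 8, 12, 12 and 14 CpG, while Tekt4 and Folr1, with 3 and 7, had peaks in both. The Ccdc78 and Deup1 promoters, among 20 RefSeq promoters of the programme, and those of Hydin and Tekt1, among 16 of the multiciliated markers, held GTTGCCA, against 4.21% of all promoters. So did 1 of 8 choroid plexus promoters, at Otx2, and 1 of 9 forebrain promoters, at Six3. None did among 13 hindbrain, 10 RFX partner, 7 radial glia, 5 pancreatic endocrine, 4 neuron, 4 microglia and 3 endothelial promoters.

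Of 8 partners and relatives of the RFX factors, 7 had a promoter peak in both replicates, against 66.3% of all genes. Nfya, a subunit of the NF-Y complex that binds beside RFX, scored 146 and 142 in a window shared with Oard1, Creb1 scored 145 and 140, and Nfyc 138 and 131. Of the other subunits of the Rfx5 complex, Rfxank scored 134 and 130, in a window shared with Borcs8 and Mef2b, and Rfxap 129 and 113. Ciita, the coactivator that class II genes need, had no promoter peak in either replicate. Ciita held 10 CpG within 500 bp of its 5′ end, and 31.9% of genes in the decile with 9 to 15 CpG had peaks in both. The partners and relatives with peaks held 42 to 105 CpG, apart from Nfyc with 11. In the deciles of those with 42 to 105 CpG the share was between 93.2% and 97.6%. Of 8 MHC class II genes, 7 had a promoter peak in both. They were led by H2-DMa with 141 and 138, then H2-Ab1 with 106 and 95 and H2-Eb1 with 107 and 82. H2-Oa had none in either. H2-DMa held 105 CpG and the other class II genes, H2-Oa among them, 7 to 13. In the deciles with 5 to 9 and 9 to 15 CpG, 17.7% and 31.9% of genes had peaks in both. The H2-Aa promoter, with peaks of 70 and 61, was the one of 7 class II promoters in RefSeq with GTTGCCA.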

How the data were processed

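DNase-seq libraries of 2 biological replicates of newborn mouse hindbrain, 1 group, were analysed. Per the labels, the build is mm10, and the authors called regions library by library. Caller, version, threshold and aligner were not given in the sources used here. The deposited peak tables give a score per peak with no stated scale, used only for ranks within a list, and the deposited hotspot tables give a −log10 q-value. Peaks off the 19 numbered chromosomes, X and Y were left out, which kept 270757 and 171790.

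Regions of both replicates were merged at 1 bp of overlap (136714 shared regions). Starts came from GENCODE M21. A distal region lay over 500 bp from every start and was assigned to the nearest protein-coding start by its centre. Percentiles are mid-ranks. Motifs were searched on both strands. Tools were Python 3.11.15, pandas 2.3.3, scipy 1.17.1 and pysam 0.24.0. Of the steps, promoter overlap, assignment to the nearest start and the GTTGCCA search were tested on simulated data. The members and gene lists were chosen with earlier results of these data known. All members are named; regions named are the strongest at each start, the 3 highest distal ones per member and the 10 highest in all; genes of the multiciliation, RFX partner and MHC class II lists are named where they had no peak or ranked in the top 3. Other genes and regions named were chosen after their values were seen. Alternatives covered windows, list cuts, overlap, hotspots, nearest genes and each replicate alone.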

Additional observations from a re-analysis of the deposited data

How the results depend on the processing

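The count of members with a promoter peak in both replicates stayed at 9 or 10 of 10 under each alternative tried, and the count with a promoter hotspot likewise. With peaks at or above the median score of each list, the members had 27 shared regions in gene bodies, against 53 with all peaks, and 38 distal shared regions, against 67, and 90.5% of replicate 2 distal peaks recurred. With the nearest start of any gene, 41 distal regions were left. Counting the peaks of 1 replicate alone gave from 64 to 101 gene body regions and from 86 to 138 distal regions. With lists of equal length, 72.6% of replicate 1 and 69.8% of replicate 2 distal peaks recurred. Allowing A or G as the first base of the second X-box arm, an alternative added after seeing the data, moved the distal X-box count to 2, against 0. A tally of 171 values under alternatives held those of single members and the distal X-box count just given. Of these, 130 stayed within 1.5 times a count, or within the SD between replicates for a promoter percentile. The other 41 moved, the X-box count among them, and the cause was not tested. No paired analysis was possible because there is 1 group. With 2 libraries of unknown depth, weak peaks found in 1 replicate cannot be told from peaks missed in the other, and no group of 4 samples allowed a search for outlying samples.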
